A study of Rattus norvegicus with 3 samples.

Results

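The data are the outlines of single cells in 1 section of rat thymus, with the number of transcripts found inside each outline. A cell bin is 1 such segmented outline, and its UMIs (unique molecular identifiers) count the captured transcript molecules. Of 796801 cell bins in the section, the 572683 that carried a deposited cell type label were chosen, which is 71.9% of them. Of these, 405240 had 1 label and 167443 had a second label as well, including 3611 with 3 labels. Every one of the 572683 bins entered the counts below. A label was named with a median where it was the first label of at least 50 bins in the set described, which held for 27 of 31 labels among bins with 1 label and for all 31 among bins with a second label. Area, UMIs, genes and UMIs per µm² were compared between first labels and between deposited regions, always separately for bins with and without a second label.

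The tissue was the thymus of 8-week-old Lewis rats. A single thymus gave the middle piece from which 1 section 10 µm thick was cut, with both lobes set side by side, and it was read on a Stereo-seq chip, which captures polyadenylated RNA on a dense grid of spots. A second arm of the study sequenced suspended cells in 2 libraries, 1 of thymocytes and 1 of CD45-negative stromal cells obtained by magnetic enrichment and flow sorting. All groups share the same strain and age, no treatment or genotype was compared, and the section and each library are single samples.

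Thymocytes develop in a fixed order of places. Double-negative cells (DN) and the double-positive cells (DP) that follow them fill the cortex, and cells selected to become CD4 or CD8 T cells or regulatory T cells (Treg) move to the medulla. Cortical epithelial cells (cTEC) and medullary epithelial cells (mTEC1, mTEC2) present self-peptides to them through long thin processes that run between the thymocytes, so an epithelial cell has no compact outline in a section, whereas a resting thymocyte is a small round cell with little cytoplasm. Mesenchymal cells (here TMC1 to TMC4 and capFb), endothelial cells (aEC, capEC, vEC) and mural cells (vSMC/PC) form the capsule, septa and vessels. The regions are those of the authors: a capsular area, the cortex, and 2 medullary areas labelled mECA and mEFA, of which the second bears the name of the epithelium-free areas the study is about.

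With 1 section there is no replicate and no test was made. Intervals in the text are exact 95% intervals of a median from the order of the bins or exact (Clopper-Pearson) 95% intervals of a share. They cover the drawing of bins only, and neighbouring bins are not independent, so a difference outside its interval may still not recur in another animal. Areas come in steps of 0.25 µm², at a nominal spot distance of 0.5 µm. A limit applies to every comparison of labelled bins: no bin below 100 UMIs had a label and every bin at or above it had one. At 95 to 99 UMIs, 18008 bins had a median area of 34.75 µm² and no label, and at 100 to 104 UMIs, 18385 bins had a median of 35.75 µm² and all had one, so the edge follows UMIs and not size. The labels were also drawn from the same UMIs that give a bin its depth. Because a labelled bin holds at least 100 UMIs, its lowest possible UMIs per µm² rises as its area falls.

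Among bins with 1 label the median area was 50.5 µm², with quartiles of 38 and 69 µm², which a circle of 8.02 µm diameter would have. These bins held a median of 168 UMIs, with quartiles of 130 and 229, from 147 genes, at 3.54 UMIs per µm². Bins without a label had a median area of 27.75 µm² and 68 UMIs. The first label accounted for 7.22% of the variance of log2 area over single bins with 1 label, so the bins of any label overlapped widely with those of the others.

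The largest bins with 1 label were those of immature cortical thymocytes. DP bins had a median area of 56.25 µm² (interval 56 to 56.5, quartiles 42 and 76.25, 82772 bins). Pre DP-sig bins followed at 55 µm² and DN bins, the most frequent label with 174371 bins, at 53.25 µm² (quartiles 40 and 72.5). DP-sig bins were next at 48 µm² and DP-P bins stood close to them at 47.75 µm². The 12 labels of later thymocytes, from Immature CD8-1 at 46.75 µm² to Mature CD4-1 at 38.5 µm², all lay below the 5 early ones. Their median was 42.5 µm² over 82726 bins, against 53.75 µm² over 315611 early bins. The deposited flag called the first label confident in only part of these bins. The share was 9.96% (DP-sig) to 46.7% (DN) for the early labels and 9.48% (Immature CD8-1) to 25.3% (Treg) for the later ones.

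Among bins with 1 label, stromal labels had the smallest outlines. The lowest medians were 29.25 µm² for the endothelial label aEC (interval 27.5 to 35.25, 60 bins), 30 µm² for TMC4 (79 bins), 31.5 µm² for mTEC2 (interval 31 to 32.25, 1639 bins) and 32 µm² for the epithelial label early Pr (317 bins). The intervals of all 4 overlapped, so their order was not resolved. All 10 epithelial, mesenchymal and vascular labels with enough bins lay below all 17 thymocyte labels, the nearest pair being cTEC at 36.5 µm² and Mature CD4-1 at 38.5 µm². Each of the 10 had a second label on 76.9% (mTEC-prol) or more of its bins. Among all bins with a second label, stromal medians of 49.9 (TMC4) to 83.5 µm² (capFb) overlapped thymocyte medians of 53 (Mature CD4-1) to 86.25 µm² (DP). Over classes, epithelial bins had a median of 33.25 µm² (6505 bins) against 51 µm² for thymocyte bins (398337 bins), a ratio of 0.652 (interval 0.647 to 0.66). It was below 1 in 26 of 26 tiles of 1 mm that held at least 100 bins of each, between 0.571 and 0.747. Given the same spread over UMI deciles, the ratio was 0.724. Among bins with a second label the ratio of the classes was 0.746 (54.25 against 72.75 µm²).

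**Figure D1:**
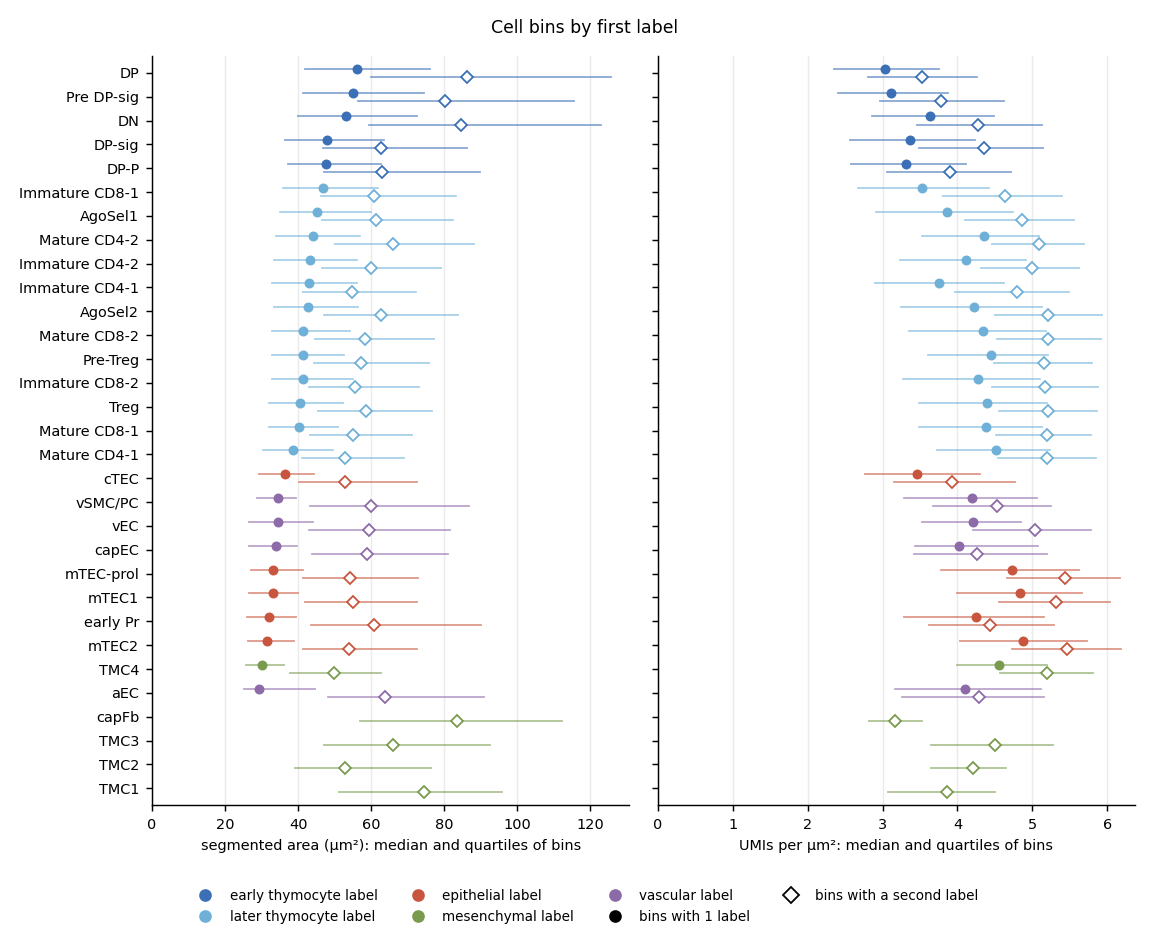
Segmented area in µm² (left) and UMIs per µm² (right) of cell bins by first label, ordered by area in bins with 1 label, with points for medians and lines for the quartiles of bins. Filled circles are bins with 1 label and open diamonds are bins with a second label, and labels with under 50 bins in a set have no point there. DP, Pre DP-sig and DN have the largest areas of the thymocyte labels in both sets, and DP has the lowest UMIs per µm² of them.

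UMIs per bin spread less between labels than area did. DN bins held the most, a median of 183 UMIs (quartiles 137 and 255) from 159 genes, followed by Mature CD4-2 with 179, Pre-Treg with 172 and AgoSel2 with 170. The lowest were cTEC with 120 UMIs from 108 genes, early Pr with 113 genes, and aEC and capEC with 127 UMIs each. These medians lie close to the 100 UMIs a label needs. The lower quartile of cTEC bins was 108 UMIs, against 137 for DN bins, and bins below the edge have no label here.

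At a near-equal number of UMIs, the number of genes hardly differed between labels. Among bins with 190 to 210 UMIs and 1 label, medians ran from 171 genes (Mature CD8-1 and mTEC2) to 174 genes (Pre DP-sig). This covers the 20 labels with at least 50 such bins. These bins had a median of 173 genes from 199 UMIs, which leaves labels little room to differ in genes. In the same window the areas still differed, with 63 µm² for DP, 60.25 µm² for Pre DP-sig, 53.5 µm² for DN, 42.5 µm² for Mature CD8-2 and 35.75 µm² for mTEC2.

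UMIs per µm² gave another order than area. The medullary epithelial labels were highest, with 4.87 UMIs per µm² in mTEC2 (interval 4.79 to 4.96), 4.84 in mTEC1 and 4.72 in mTEC-prol. TMC4 followed with 4.56. These labels were not confined to the medulla. With and without a second label, 47.4% of mTEC2, 42.5% of mTEC1 and 49.4% of mTEC-prol bins lay in the cortex, as did 47.6% of Treg bins. DP was lowest with 3.03 (interval 3.02 to 3.04), then Pre DP-sig with 3.12, DP-P with 3.32 and DP-sig with 3.37. Both parts of the ratio differed: a median of 49.5% of the units of area of an mTEC2 bin held a UMI, with 2.48 UMIs per occupied spot, against 40.2% and 1.88 in DP bins. The cortical label cTEC stood apart from the other epithelial labels with 3.46, in the range of the early thymocyte labels. In the cortex mTEC2 had 1.38 times its UMIs per area (4.73 against 3.42), but in the capsular area the ratio was 1.02 with an interval of 0.900 to 1.20 that held 1.

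The higher UMIs per area of epithelial labels did not hold at equal area. The ratio of epithelial to thymocyte bins was 1.30 (interval 1.29 to 1.32; 4.59 against 3.53 UMIs per µm²) and was above 1 in 26 of 26 tiles. When both groups were given the same spread over area deciles it was 0.937. In the deposited table of square bins of 20 units, which have 1 fixed area of 100 µm², it was 0.546. These squares are not segmented cells and carry labels of their own, so this value is not of the same bins. Within regions the ratio over cell bins was 1.28 in the cortex and 1.10 in mECA. In mEFA it was 1.03, where the interval of 0.992 to 1.06 held 1.

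DN and DP bins, the most frequent labels, differed more in UMIs per area than in area. In the cortex, DN bins with 1 label had a median area of 53 µm² and DP bins 56 µm², a ratio of 0.946 (interval 0.942 to 0.955). Their UMIs per µm² were 3.57 and 3.0, a ratio of 1.19 (interval 1.18 to 1.20). The ratio of UMIs per area lay above 1 in each of the 4 regions, between 1.16 in mEFA and 1.22 in the capsular area, and in 69 of 69 tiles, between 1.12 and 1.42. The area ratio was below 1 in 60 of those 69 tiles, and in mECA and mEFA its interval held 1. With a second label, the cortical ratio was 0.997 for area (interval 0.979 to 1.02) and 1.20 for UMIs per area. Over tiles of such bins, the area ratio was below 1 in 37 of 65. DN is also the first label of 41.6% of the bins with a thymocyte label but of 4.56% of the cells of the thymocyte library (390 of 8546, interval 4.13 to 5.03), while DP has 20.4% of those bins and 60.9% of the cells. In that library, ranked over the labels also used in the section, 2 of the 3 fixed DN markers were highest elsewhere. Dntt, the transferase that adds bases at receptor joints, was highest in DP. Il2ra, the interleukin 2 receptor alpha chain, was highest in Treg. The third, Ptcra, which codes for the pre-T-cell receptor chain, had a summed level of 272 CPM (counts scaled to a fixed library total) in DN and 265 CPM in DP-P. The DN label is therefore used as the deposited name only.

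The label DP-P, whose cells in suspension carried the cycle genes, had smaller outlines than DP. DP-P bins with 1 label measured 47.75 µm² (16754 bins), 0.849 times the DP bins (interval 0.836 to 0.862), and were smaller than DP bins in 58 of 58 tiles. In mECA the ratio was 0.980 (interval 0.841 to 1.10) and in mEFA 1.02 (interval 0.915 to 1.15), both holding 1. In the thymocyte library, among the labels also used in the section, the summed levels of Mki67, Top2a and Pcna were highest in DP-P. Mki67 had 1114 CPM there, against 450.1 CPM in DN, the next of these labels. Library labels absent from the section, among them Mature cycling T with 33 cells, were not ranked. DP-P bins held 147 UMIs, the fewest of the 17 thymocyte labels, at 3.32 UMIs per µm².

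A second label went with larger bins that held more UMIs. Bins with a second label had a median area of 68.75 µm² (quartiles 49.5 and 100), 304 UMIs from 256 genes and 4.54 UMIs per µm². Against bins with 1 label the area ratio was 1.36 (interval 1.35 to 1.37) and the ratio of UMIs per area 1.28 (interval 1.28 to 1.29), and 74 of 74 tiles had an area ratio above 1. The 3611 bins with 3 labels were larger again, with a median of 174.5 µm² and 756 UMIs. Over the 27 labels that reached 50 bins in both sets, the ratio ran from 1.27 (Immature CD4-1) to 2.18 (aEC) for area, from 1.63 (cTEC) to 2.20 (vEC) for UMIs and from 1.05 to 1.31 for UMIs per area.

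For all bins together and for the thymocyte labels, the larger area of bins with a second label did not hold at equal UMIs. Given the same spread over UMI deciles, bins with a second label had 0.889 times the area of those with 1 label. The ratio by label was below 1 for 18 of 27 labels, including all 17 thymocyte labels. Among the epithelial, mesenchymal and vascular labels it was below 1 only for vEC (0.871). The others ran from 1.04 (TMC4) to 1.45 (aEC). At the same spread over area deciles, UMIs per area were higher with a second label for 27 of 27 labels, by 1.22 to 1.67 times. Depth separated the kinds of bin further than size did. A second label was present in 3.16% of the bins in the lowest decile of UMIs (100 to 115) and in 78.5% of those in the highest (412 and more), against 11.1% and 60.9% from the lowest to the highest decile of area.

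**Figure D2:**
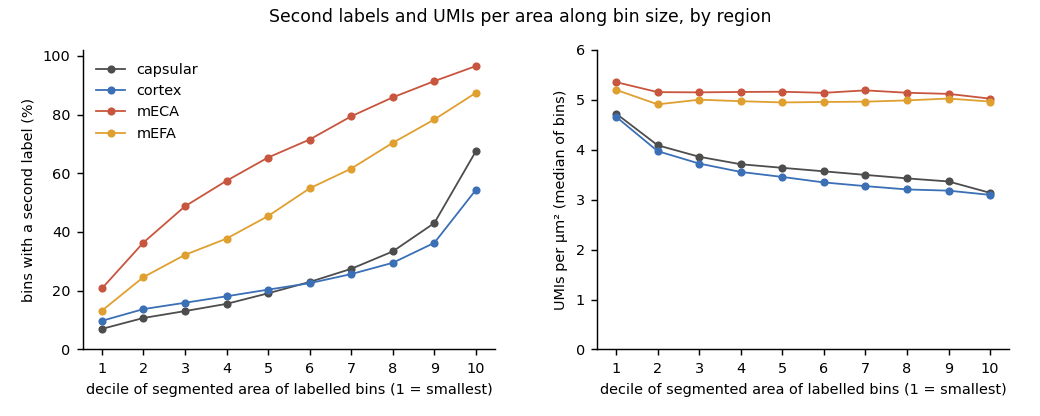
Share of labelled bins with a second label in percent (left) and median UMIs per µm² (right) against the decile of segmented area of all labelled bins, from 1 (smallest) to 10, with 1 line per region. In mECA the share goes from 20.8% to 96.5%, while UMIs per µm² stay between 5.02 and 5.35; in the cortex UMIs per µm² go from 4.66 to 3.10.

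Most second labels were epithelial ones in a thymocyte bin. An epithelial type was the second label of 71.1% of these bins, and cTEC alone of 28.2%. The commonest pair, DN with cTEC, made up 14.1% and had a median area of 85.5 µm². Early thymocyte labels with an epithelial second label had a median area of 82.75 µm² and later thymocyte labels with one 59.5 µm². Bins with an epithelial first label and an early thymocyte second measured 55 µm². Pairs of 2 early thymocyte labels were rare, 0.743% of bins with a second label, but large, with a median of 153 µm² and 616 UMIs.

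The share of bins with a second label split the labels into 2 ranges. It ran from 10.9% (DP-P, interval 10.5 to 11.4) to 43.3% (Treg, interval 42.5 to 44.0) over the 17 thymocyte labels, and from 76.9% (mTEC-prol) to 98.0% (capFb, 50 of 51 bins) over the 14 others. Among bins with a second label, the first label often did not have the largest deposited weight. This held for 70.0% to 92.5% of the bins of each epithelial label. For the mesenchymal and vascular labels it was 76% (capFb) to 89.3% (capEC), and for the thymocyte labels 0% to 5.64%. An epithelial, mesenchymal or vascular bin with a second label thus mostly held more weight of another type.

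Among bins with a second label the order of labels by area kept DP at the top with 86.25 µm² (quartiles 60 and 125.75) and DN next with 84.75 µm². The mesenchymal label capFb followed with 83.5 µm², from 50 bins with an interval of 67.25 to 104.25, and then Pre DP-sig with 80.25 µm². The lowest were TMC4 with 49.9 µm² and, at 53 µm² each, Mature CD4-1, cTEC and TMC2. The labels did not all keep their place: aEC ranked 27 of 27 by area with 1 label and 8 of 31 with a second, and Immature CD4-1 ranked 10 and 25. The order of UMIs per area kept mTEC2 (5.46), mTEC-prol (5.44) and mTEC1 (5.32) on top, now followed by Treg (5.22), with capFb (3.16), DP (3.53), Pre DP-sig (3.77) and TMC1 (3.86) lowest. UMIs were highest in DN (353), Mature CD4-2 (329.5), AgoSel2 (318) and Treg (299) and lowest in cTEC (196), TMC2 (206), DP-P (241) and capEC (245).

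By region, medullary bins with 1 label were smaller and richer in UMIs per area than cortical ones. The median area was 51.5 µm² in the cortex (293325 bins), 54 µm² in the capsular area (77635), 37.5 µm² in mECA (20827) and 40 µm² in mEFA (13453). UMIs per µm² were 3.40, 3.55, 4.84 and 4.80 in the same order. The medulla over the cortex gave an area ratio of 0.748 (interval 0.743 to 0.752), below 1 in 50 of 50 tiles, and a ratio of UMIs per area of 1.42 (interval 1.41 to 1.43), above 1 in 50 of 50 tiles.

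The area difference was not present over all bins, which add those with a second label and those without a label. Over all labelled bins the median area was 54.75 µm² in the cortex, 47.25 µm² in mECA and 46.25 µm² in mEFA. In the cortex 32.1% of bins had no label, against 7.16% in mECA and 10.6% in mEFA, and these bins were small, with medians of 28, 19.75 and 21.75 µm². Over all bins the median area was 44.25 µm² in the cortex, 45.5 µm² in mECA and 43.5 µm² in mEFA, and the ratio of medulla to cortex was 1.01. The difference in UMIs per area was larger over all bins, with a median of 3.13 UMIs per µm² for cortical bins, 5.11 for mECA bins and 4.90 for mEFA bins. Medulla over cortex then gave 1.61. The medullary bins held both more occupied spots, 49.6% of the area in mECA against 42.4% in the cortex with 1 label, and more UMIs per occupied spot, 2.44 against 2.00.

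**Figure D3:**
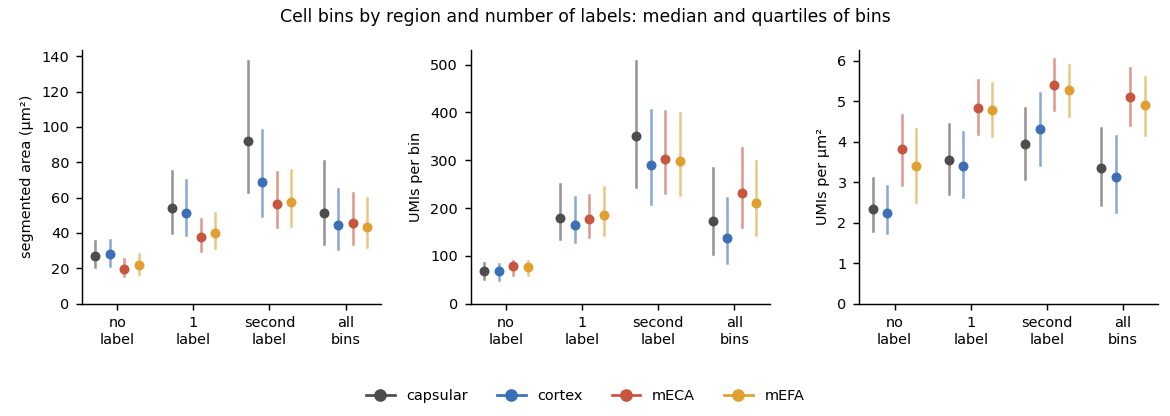
Segmented area in µm², UMIs per bin and UMIs per µm² by region, for bins with no label, with 1 label, with a second label and for all bins, with points for medians and lines for the quartiles of bins. The areas of the regions differ within bins with 1 label (37.5 to 54 µm²) and less over all bins (43.5 to 51.5 µm²), and UMIs per µm² are higher in mECA and mEFA in each set of bins.

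Labels differed between mECA and the cortex in 1 direction. With 1 label, all 20 labels with at least 50 bins in both regions had more UMIs per area in mECA than in the cortex, by 1.11 (mTEC2) to 1.43 times (Pre DP-sig), and all 20 had smaller areas, by 0.683 (DP) to 0.966 times (mTEC1). DP bins measured 56 µm² in the cortex and 38.25 µm² in mECA, and DN bins 53 and 37.25 µm². The spread between labels was narrower in the medulla: the highest label median of area was 1.75 times the lowest in the cortex (DP over mTEC2) and 1.30 times in mECA (Mature CD4-2 over mTEC2). Later thymocyte labels had 0.819 times the area of early ones in the cortex (44 against 53.75 µm²), and 1.02 times in mECA (38.5 against 37.75 µm², interval 1 to 1.04). Label and region together accounted for 14.2% of the variance of log2 UMIs per area over bins with 1 label, label alone for 10.1% and region alone for 7.77%.

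**Figure D4:**
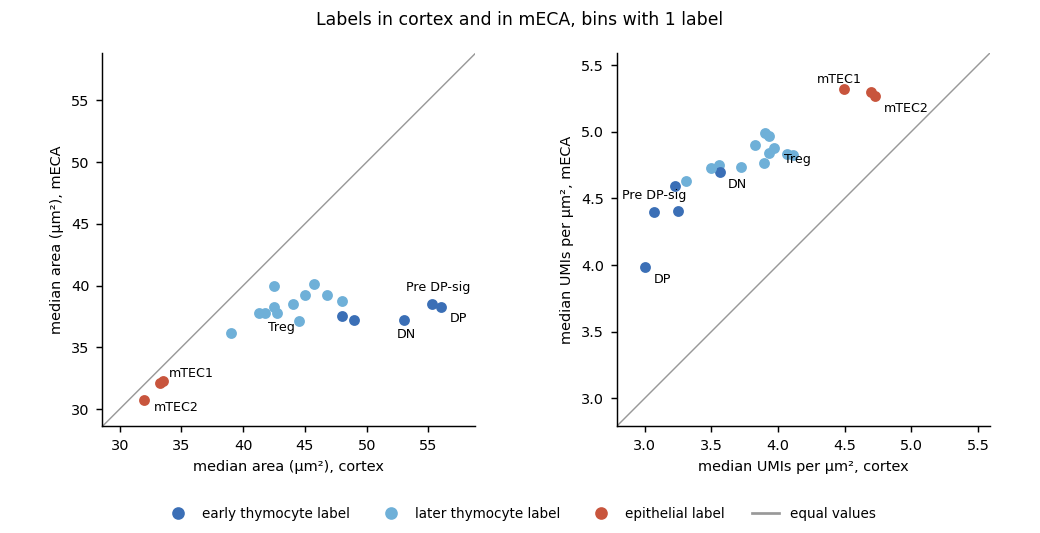
Median area in µm² (left) and median UMIs per µm² (right) of 20 labels in mECA against the cortex, bins with 1 label, with a grey line where both are equal. Every label lies below the line for area and above it for UMIs per µm², and the early thymocyte labels DP, Pre DP-sig and DN lie farthest below it.

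With a second label the same comparison held for UMIs per area and not for area. All 23 labels had more UMIs per µm² in mECA than in the cortex, by 1.03 (vSMC/PC) to 1.30 times (Pre DP-sig). Area was smaller in mECA for 17 of 23 labels and larger for 6, between 0.645 times (DP) and 1.06 times (mTEC2). A second label was present on 57.8% of labelled bins in mECA (interval 57.4 to 58.3), 41.9% in mEFA (interval 41.3 to 42.6), 30.9% in the capsular area and 24.4% in the cortex. In mECA it was present at every size more often than in the cortex, from 20.8% against 9.75% in the smallest decile of area to 96.5% against 54.3% in the largest.

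The 2 medullary areas differed little in either measure. With 1 label, mEFA bins had 1.07 times the area of mECA bins (interval 1.05 to 1.08), above 1 in 25 of 26 tiles and for 17 of 20 labels. The area ratio was 0.979 when bins with a second label were included and 0.956 over all bins, so its direction followed the choice of bins. UMIs per area had a ratio of 0.992 with an interval of 0.985 to 1.00, and by label the ratio was above 1 for 7 and below 1 for 13 of 20 labels, between 0.909 (mTEC-prol) and 1.03 (Pre-Treg). In 22 of 26 tiles it was below 1. Mature CD4-1 bins showed the widest area ratio of the 20 labels, 1.09.

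The largest outlines of the capsular area were among the bins that the authors had marked as the capsule. This outline held 20297 bins, all in the capsular area, which itself is the zone within 100 units (50 µm) of it. Of the 10 nearest neighbours of an outline bin, 44.0% were in the outline too. This share cannot tell a thin unbroken line from a broken one. How the outline was drawn is not given in the sources used here. Outline bins had a median area of 109.75 µm² (interval 109 to 110.75) and 443 UMIs, 0.335% of them had no label and 79.1% of the labelled ones had a second label. The other 126308 capsular bins had a median area of 46.75 µm² and 153 UMIs, close to the cortex with 44.25 µm² and 138 UMIs, with 27.1% unlabelled and 20.3% with a second label. With 1 label, bins measured 98 µm² inside the outline and 52.5 µm² in the rest of the capsular area, against 51.5 µm² in the cortex. The DN label took 51.3% of the labelled bins inside the outline and 50.2% of the other capsular ones.

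By label, capsular bins with 1 label were larger than cortical ones for 20 of 22 labels (18 of 21 without the outline). Their UMIs per area were lower for 16 of 22 labels (15 of 21 without the outline), with a median ratio of 0.923. With the outline included, the labels with higher values were cTEC and all early thymocyte labels. Early labels made up 69986 of the 77635 capsular bins with 1 label. Their median was 3.56 UMIs per µm², against 3.32 in the cortex. Over all bins with 1 label the capsular median was also the higher. Capsular bins with a second label were larger than cortical ones for 27 of 27 labels, with a median ratio of 1.24. Without the outline the ratio was above 1 for 20 of 21 labels, with a median of 1.10, and DN was the exception with 0.988. UMIs per area with a second label were lower in the capsular area for 24 of 27 labels, and for 19 of 21 without the outline. Of the 2685 bins over 250 µm², 1813 were capsular, 1399 of them in the outline, and 93.7% of the 2685 had a second label. UMIs per µm² over all bins had their lowest median, 2.64, between 50 and 100 µm from the outline, just inside the cortex, and reached 3.52 at 400 to 600 µm.

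The outlines left part of each region uncovered. They covered 72.7% of the cortex, 77.4% of the capsular area, 67.9% of mECA and 64.9% of mEFA, at 13800, 11671, 13232 and 13266 bins per mm². The median distance between the centres of nearest bins was 6.10 µm in the cortex and in mEFA and 6.32 µm in mECA. UMIs inside outlines were 1.16 times as dense as outside them in the cortex and 1.26 times in the capsular area, but 0.983 times in mECA and 1.05 times in mEFA. In mECA, 67.5% of the UMIs lay inside an outline, against 75.5% in the cortex.

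The labels' UMIs in suspension were spread far more widely than their UMIs in the section. In the thymocyte library DN cells had a median of 23190 UMIs (interval 20417 to 26795, 390 cells), DP-P cells 15439 and DP cells 3205.5, so that DN held 7.23 times the UMIs of DP (interval 6.29 to 8.47). In bins with 1 label DN held 183 and DP 158 UMIs, a ratio of 1.16, and DP-P 147. Over 15 thymocyte labels the suspension medians spanned 7.23-fold and the bin medians 1.24-fold, with a Spearman correlation of 0.463. Over 10 stromal labels the spans were 2.89-fold and 1.22-fold, with a correlation of 0.492, and over all 25 labels the correlation was -0.0635. With a second label the correlation was 0.159 over the same 15 thymocyte labels, 0.543 over 14 stromal labels and 0.0978 over all 29. These correlations describe labels that share 1 section and 2 libraries of different depth. Ranked over the section's labels, 27 of 32 fixed marker genes had their highest summed level in suspension in a label they mark. Rag1 in DP, Foxp3 in Treg, Prss16 in cTEC and Aire in mTEC2 were among them. For some lists any of several labels counted as a match. The labels annotate these same cells, so the count is no independent check of them. Beside Dntt and Il2ra, the exceptions were Ccl21 (highest in TMC4), Krt14 (cTEC) and Ccr7 (Pre-Treg). Of the annotated barcodes, 28 occurred in both libraries.

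**Figure D5:**
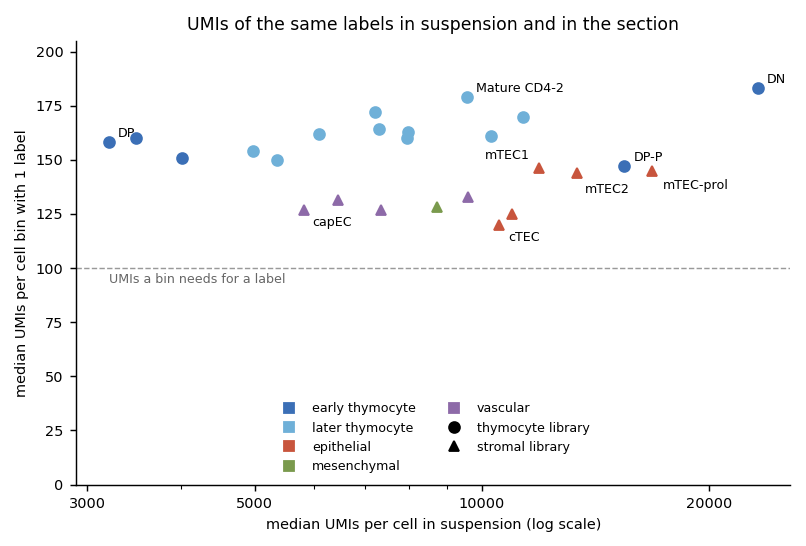
Median UMIs per cell bin with 1 label (vertical axis) against the median UMIs per cell of the same label in suspension (horizontal axis, log scale), with 1 point per label having at least 50 cells and 50 bins. The dashed line marks the 100 UMIs that a bin needs for a label. Thymocyte labels span 3205.5 to 23190 UMIs in suspension and 147 to 183 UMIs in bins.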

How the data were processed

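Total counts of UMIs, genes and occupied capture spots per cell bin, its area in squared grid units, its region and its distance to the capsule were taken from the authors' table of segmented cells, deposited beside a second one of 20-unit square bins. The weights of up to 3 labels per bin are fractions deposited by the authors, from robust cell-type decomposition (RCTD), per the series' design text. UMIs per gene of the suspended cells are raw counts deposited by the authors. The submitters' processing notes name Cell Ranger 8.0.0, Seurat 5.3.0 and the build mRatBN7.2. The segmentation method, the rule for the medullary regions and how the capsule was outlined are not given in the sources used here. The gene counts of the bins were not analysed here, so bins could not be thinned to equal UMIs, and genes were compared at 190 to 210 UMIs. No doublet caller was run.

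Area was converted at a nominal 0.5 µm per unit. No bin had more occupied spots than units of area, which fits the reading of area as squared units. Medians, exact intervals and ratios of medians were computed with Python 3.11.15, numpy 2.4.6, scipy 1.17.1 and pandas 2.3.3; the interval of a ratio joins those of its 2 medians and is therefore wide. Equal spread over deciles means that bins were weighted to the same total in each of 10 deciles of UMIs or area; intervals and weighting were tested on simulated data. The labels named are the 4 highest and 4 lowest of each order, those of the fixed comparisons and those whose rank turned. Labels are written without their prefix. Members, comparisons and lists were chosen with earlier results of these data known. Each group is 1 sample, so no p-value was computed. Depth was 151785500 UMIs in cell bins.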

Additional observations from a re-analysis of the deposited data

Results flagged for a closer look

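Signal was present outside the bins compared. Cell bins without a label held 14866563 UMIs, and 49507736 UMIs of the section lay outside every cell bin. No control sample gives a background level for either.

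A few contrasts between labels pointed in opposite directions in 2 regions, with both intervals outside 1; the difference between regions was not tested. With a second label, DN bins had 0.931 times the area of DP bins in the capsular area (97.75 against 105 µm²) and 1.10 times in mECA (57.5 against 52.25 µm², 276 DP bins). With 1 label, later thymocyte labels had 0.960 times the UMIs per area of early ones in the capsular area (3.42 against 3.56 per µm²) and 1.14 times in the cortex (3.78 against 3.32). Outside the capsule outline the capsular value was 0.974. With a second label, later thymocyte bins had 0.739 times the area of early ones in the capsular area (73 against 98.75 µm²) and 1.06 times in mECA (58.25 against 54.75 µm²). Outside the outline the capsular value was 0.808.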

How the results depend on the processing

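The 10 main ratios were recomputed with means, depth and area limits, confident labels, the parts of the section left and right of the median x coordinate, equal spreads, sums and other sets of bins. Of 104 such values, 94 kept their side of 1 and 10 crossed it, and the cause was not tested. The 94 include the values taken with the label of largest weight, which could not differ from the main ratio. Of the crossings, 4 were of UMIs per area of mEFA over mECA, whose interval reached 1, and the other 6 were these. The ratio of areas of bins with a second label to those with 1 turned to 0.889 at equal UMIs. Epithelial over thymocyte UMIs per area turned to 0.937 at equal area and 0.546 in 20-unit bins. The area ratio of medulla to cortex turned to 1.01 over all bins, and that of mEFA to mECA to 0.956 over all bins and 0.979 with second labels included.

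The values that left the interval of the main ratio follow. Area of DN over DP in the cortex was 0.957 by means, 0.888 at 200 UMIs or more, 0.956 between the 5th and 95th percentile of area, 0.962 with confident labels, 0.930 and 0.964 left and right of the median x coordinate, and 0.866 at equal UMIs. Their UMIs per area were 1.18 within the area percentiles, 1.27 confident, 1.21 left, 1.17 right, 1.16 at equal area, 1.21 from sums and 1.30 in 20-unit bins. Epithelial over thymocyte area was 0.611 by means, 0.608 at 200 UMIs, 0.712 within the percentiles, 0.602 confident, 0.724 at equal UMIs and 0.891 with second labels included, and the UMIs per area were 1.26, 1.43 and 1.21 under the first 3 of these, 1.28 from sums and 1.37 with second labels.

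Medulla over cortex area was 0.723 by means, 0.712 at 200 UMIs, 0.786 within the percentiles, 0.717 confident, 0.729 left, 0.766 right, 0.705 at equal UMIs, 0.858 with second labels and 0.758 beyond 50 µm from another region. Their UMIs per area were 1.38, 1.33, 1.41, 1.39, 1.48 and 1.35 under the first 6, 1.35 at equal area, 1.44 from sums, 1.61 in 20-unit bins, 1.61 over all bins and 1.50 beyond 50 µm. For mEFA over mECA, area was 1.04 at 200 UMIs, 1.09 confident and 1.03 at equal UMIs, and UMIs per area were 1.01 left, 0.977 right, 1.00 at equal area, 1.01 in 20-unit bins, 0.967 with second labels, 0.959 over all bins and 1.03 beyond 50 µm.

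Area of bins with a second label over 1 label was 1.46 by means, 1.11 at 200 UMIs, 1.24 within the percentiles, 1.45 confident, 1.39 left and 1.33 right. The UMIs per area were 1.24, 1.17, 1.34 and 1.21 under the first 4, 1.39 at equal area, 1.24 from sums and 1.54 in 20-unit bins. Leaving out the capsule outline, an alternative chosen after seeing the data like the tiles and the label medians under other settings, gave 1.31 for area and 1.30 for UMIs per area and moved no other ratio. The label with the largest weight is the only label of a bin with 1 label and changed nothing. Counting suspended cells with at least 1000 UMIs gave 7.21 for DN over DP.

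Label medians of area were 1.05 to 1.43 times higher at 200 UMIs or more, where 48 medians could be taken, with DP at 80.5 µm² and mTEC2 at 41.5 µm² among bins with 1 label. No paired analysis was possible because there is only a single section.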
